A study of Mus musculus with 24 samples.

Results

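RNA polymerase II, its general transcription factors, Mediator and the Supt elongation factors were followed as 1 group of genes through nuclear RNA-seq and m6A MeRIP-seq of mouse ES cells. The group was taken by name, as every gene with counts in both tables whose symbol begins with Polr2 and a letter from a to m, Gtf2 and a letter from a to i, or Taf, Med or Supt and a number. Of the 47937 gene identifiers, 91 symbols matched, 1 of them a pseudogene that was left out, and 90 genes remained. Low counts removed Gtf2a1l and Med9os from the tests, so that 88 genes were tested. The names gather several complexes, and a few genes share a name pattern without sharing a complex: Taf1a to Taf1d belong to the SL1 factor of RNA polymerase I, Taf15 encodes an RNA-binding protein, and Gtf2i and its relatives encode the TFII-I family.

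WT26 cells are wild type ES cells, and the Mettl14 KO line (clone A10) is 1 CRISPR/Cas9 clone derived from them that carries a frameshift deletion in Mettl14. RBC cells are a control ES line with a BirA-V5 transgene at Rosa26 and a Cre-ERT2 transgene, and the Mettl3 KO line (clone 2c4d) is 1 clone derived from RBC. The labels give a mixed 129/Sv and C57Bl6 background for the RNA-seq lines. Mettl3 and Mettl14 encode the catalytic and the RNA-binding partner of the methyltransferase that writes m6A on RNA. Each knockout was compared with its own parental line, so a difference that arose in a single clone and an effect of the lost gene cannot be told apart. Each line had 2 replicates in RNA-seq, in MeRIP input and in MeRIP IP, the RNA recovered with an antibody against m6A.

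RNA polymerase II transcribes all mRNA. Its catalytic subunits are positioned at promoters by the general transcription factors TFIIA to TFIIH, among which TFIID contacts promoter DNA through TBP and the TAF proteins. Mediator relays signals from enhancer-bound activators through a head, a middle and a tail module, and a detachable kinase module turns this relay on and off. Past the promoter, DSIF (Supt4a and Supt5), Spt6 (Supt6) and the histone chaperone FACT (Supt16 and Ssrp1) travel with the polymerase. Most of these genes are active in every cell, and ES cells are known to depend on high Mediator and TFIID activity.

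RNA-seq totals ran from 11321459 to 13743181 counted reads and MeRIP totals from 9394163 to 28441282. All 8 pluripotency markers were present in every line, with summed levels of 24630.0 to 27655.6 normalised counts in the control lines and 17492.0 to 19804.3 in the knockouts. In Mettl3 KO Dppa5a fell furthest (4792.5 and 4947.9 in RBC against 1143.5 and 1236.9). Klf4 rose there (1255.3 and 1230.3 in RBC against 1867.9 and 1852.3) and fell in Mettl14 KO, and the other pluripotency markers were lower in both knockouts. The 8 fibroblast markers summed to between 54.6 and 129.1, with Dcn at 0 in all 4 lines. The 7 primitive endoderm markers summed to 323.5 and 309.8 in Mettl14 KO and to between 99.8 and 175.5 elsewhere. Against WT26, Pdgfra, Dab2, Gata6, Gata4 and Sox7 were higher in Mettl14 KO, whereas Sox17 and Foxa2 were not. The 7 neuronal markers summed to between 1309.6 and 1467.2 in the knockouts and 1874.9 and 2023.8 in the control lines, but did not move together. Stmn2, the largest part of the sum in every line, fell in both knockouts (1131.2 and 1177.1 in RBC, 487.8 and 527.8 in Mettl3 KO). Tubb3 fell in Mettl14 KO (444.0 and 414.4 in WT26 against 194.3 and 210.4). In Mettl3 KO Tubb3 rose (357.5 and 357.9 in RBC against 468.7 and 512.7). Neurod1 fell in both knockouts, whereas Map2 and Elavl3 rose in Mettl14 KO. The part of these shifts in the results was not tested. Both disrupted genes still gave reads. Mettl14 had 400.6 and 357.5 normalised counts (WT26) against 296.5 and 315.6 (Mettl14 KO). Mettl3 had 927.7 and 978.9 (RBC) against 880.0 and 820.9 (Mettl3 KO). The RBC RNA-seq replicates stood further apart than those of the other lines (chi-square over its degrees of freedom 39.8, elsewhere 2.95 to 6.31).

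In RNA-seq, 45 of the 88 genes passed the test in Mettl14 KO against WT26, 15 higher and 30 lower. A gene passed at an adjusted p of at most 0.05 in edgeR's quasi-likelihood test. Among all 17021 genes tested, 52.5% passed, 25.5% higher and 27.0% lower, so changes among the transcription genes were about as frequent as in the transcriptome, with more of them on the lower side. In Mettl3 KO against RBC, 54 of the 88 passed, 22 higher and 32 lower, where 53.4% of all genes passed, 25.2% higher and 28.1% lower. Without replicate 1 of RBC 45 passed, and without replicate 2 of RBC 49 passed. The group had a median log2 fold change of -0.07 (Mettl14 KO) and -0.13 (Mettl3 KO), against 0.0 over all genes. Most changes were small. A log2 fold change beyond 1 was reached by 2 higher and 3 lower genes in Mettl14 KO (background 7.95% and 6.57%) and by 0 higher and 2 lower genes in Mettl3 KO (background 6.15% and 7.43%). Bulk RNA gives a level over all cells, and fewer expressing cells cannot be told apart from less RNA per cell.

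**Figure D1:**
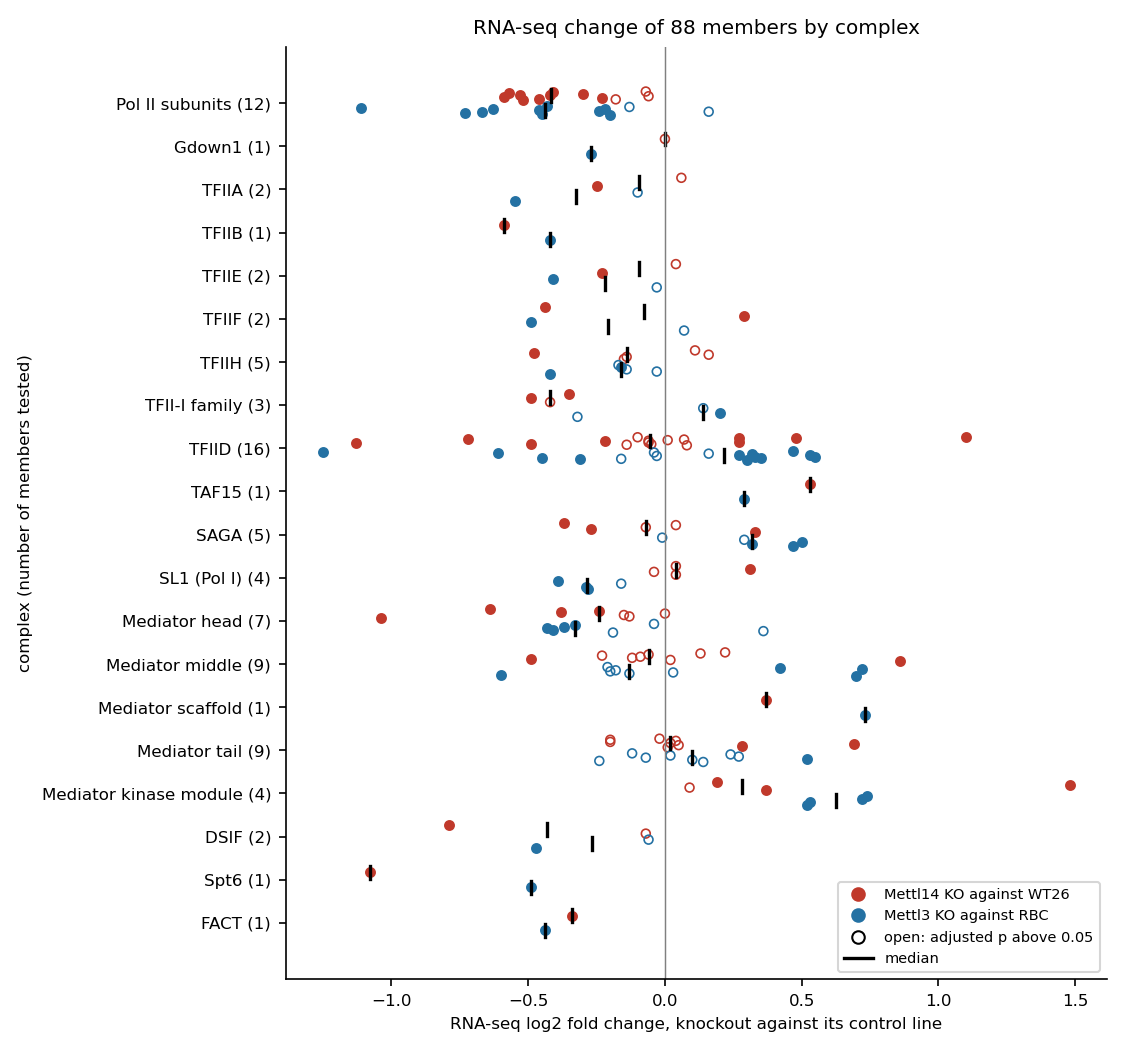
RNA-seq log2 fold change (horizontal axis) of the 88 tested genes, grouped by complex on the vertical axis, in Mettl14 KO against WT26 (red) and in Mettl3 KO against RBC (blue). Each point is 1 gene and filled points have an adjusted p of at most 0.05; the Pol II subunits lie to the left of 0 (medians -0.41 and -0.44), apart from Polr2d at 0.16 in Mettl3 KO, and the Mediator kinase module to the right (0.28 and 0.63).

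The core subunits of RNA polymerase II were mostly lower. Of the 12 genes Polr2a to Polr2l, 9 were lower and 0 higher in Mettl14 KO, and 10 were lower and 0 higher in Mettl3 KO. Their median log2 fold changes were -0.41 and -0.44. Behind these and the later counts by complex stood shares of 25.5% higher and 27.0% lower among all genes in Mettl14 KO. In Mettl3 KO those shares were 25.2% and 28.1%. Polr2a encodes the largest subunit, which carries the C-terminal repeat domain, and at 844.0 normalised counts per kb of exon in the control lines it was among the most abundant of the group. Its levels were 6348.2 and 5393.9 normalised counts (WT26), 3964.1 and 4198.8 (Mettl14 KO), 6242.1 and 5873.6 (RBC) and 5583.7 and 4971.7 (Mettl3 KO). Every knockout library lay below both libraries of its parental line. The log2 fold change was -0.52 (SE 0.0709, adjusted p = 7e-06) in Mettl14 KO and -0.20 (SE 0.0705, adjusted p = 0.0244) in Mettl3 KO. The second of these did not pass without replicate 2 of Mettl3 KO (-0.11, adjusted p = 0.205) or without replicate 1 of RBC (-0.16, adjusted p = 0.142), nor with DESeq2 (adjusted p = 0.151).

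Polr2b encodes the second largest subunit, which forms the active centre together with Polr2a. It stood at 3414.7 and 3352.9 (WT26), 2443.7 and 2474.4 (Mettl14 KO), 3634.9 and 3770.8 (RBC) and 2179.2 and 2285.4 (Mettl3 KO). The knockouts were clearly separated from the controls, with log2 fold changes of -0.46 (SE 0.0465) and -0.73 (SE 0.0466). Polr2i, a zinc-binding subunit needed for transcript cleavage and start site choice, had the largest fall among the subunits. Its locus at chr7:30231948-30233390 (plus strand, GRCm38) gave 320.1 and 340.3 counts (WT26), 234.4 and 210.4 (Mettl14 KO), 384.0 and 428.8 (RBC) and 172.2 and 205.5 (Mettl3 KO). It fell in both knockouts, by 0.57 (SE 0.104) and by 1.11 (SE 0.104, adjusted p = 7.31e-08) on the log2 scale. Polr2i shares 325 exon bases with Tbcb on the other strand, and the strand setting of the RNA-seq counting is not given in the sources used here.

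The remaining subunits differed in how evenly the knockouts shared the fall. Polr2c, which forms the assembly platform of the enzyme with Polr2j, fell by 0.23 (adjusted p = 0.0138) and 0.67 (adjusted p = 8.32e-07), and Polr2h, a subunit shared by the 3 nuclear polymerases, by 0.30 (adjusted p = 0.00785) and 0.63 (adjusted p = 7.42e-06). In Mettl14 KO neither passed with DESeq2 (adjusted p = 0.0684 for both) or without replicate 2 of Mettl14 KO, nor Polr2c without replicate 1 of Mettl14 KO or replicate 2 of WT26. Polr2c shares 953 exon bases with Dok4 on the other strand. Polr2d, a subunit of the stalk that binds emerging RNA, differed from them: 172.7 and 172.9 counts in WT26 stood against 105.2 and 123.7 in Mettl14 KO (-0.59, SE 0.132), whereas 188.5 and 169.6 in RBC overlapped with 185.2 and 214.5 in Mettl3 KO (0.16, adjusted p = 0.289). Polr2e (-0.06), Polr2f (-0.18) and Polr2l (-0.07) did not pass in Mettl14 KO. Polr2m, which encodes the Pol II associated protein Gdown1, was at -0.00 in Mettl14 KO and fell by 0.27 in Mettl3 KO.

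**Figure D2:**
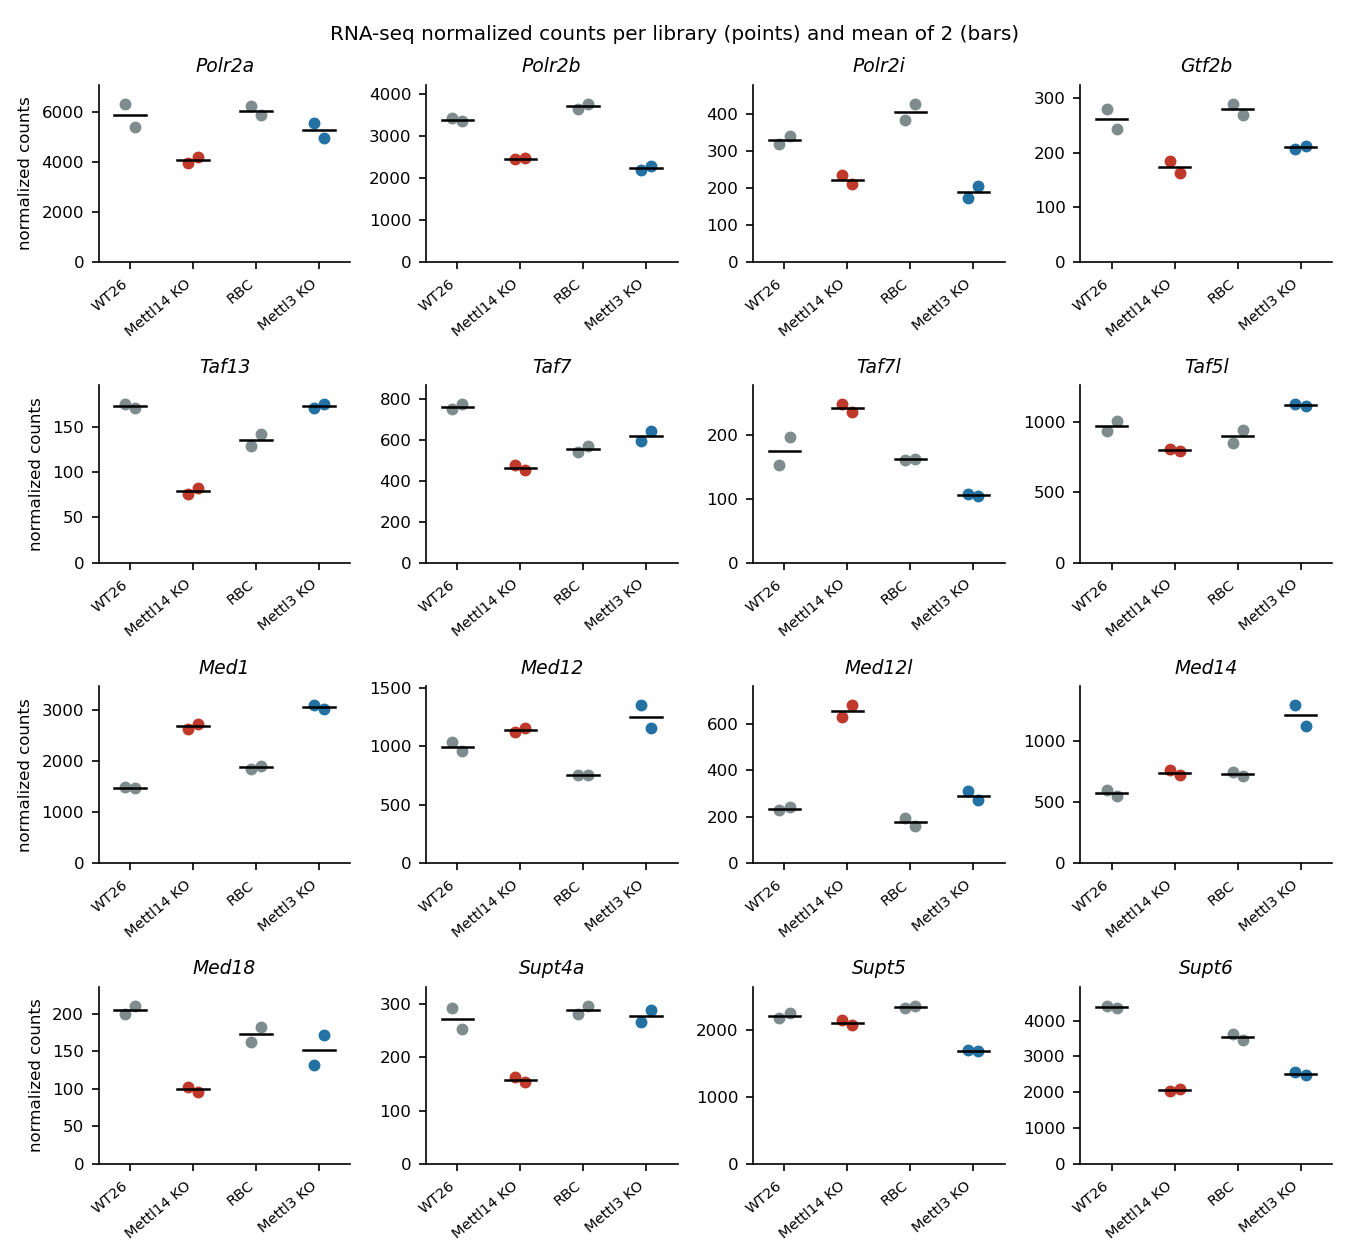
Normalised RNA-seq counts (vertical axes, from 0) of 16 genes in the 4 lines, with 1 point per replicate and a bar at the mean of 2. Polr2a, Polr2b, Polr2i and Supt6 are lower in both knockouts than in their parental lines, Med1, Med12l and Med14 are higher in both, and Taf13, Taf5l and Taf7l move in opposite directions.

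The general transcription factors outside TFIID leaned the same way but less uniformly. Of 12 tested genes of TFIIA, TFIIB, TFIIE, TFIIF and TFIIH, 5 were lower and 1 higher in Mettl14 KO (median -0.15), and 6 were lower and 0 higher in Mettl3 KO (median -0.16). Gtf2b encodes TFIIB, the single protein that bridges TBP and the polymerase. It was at 279.4 and 242.6 (WT26), 185.3 and 162.7 (Mettl14 KO), 289.7 and 269.1 (RBC) and 206.1 and 212.5 (Mettl3 KO). No knockout library overlapped with its control, and Gtf2b fell by 0.59 (SE 0.108, adjusted p = 0.00018) and by 0.42 (SE 0.105, adjusted p = 0.00273). Gtf2a2, the small TFIIA subunit, fell by 0.25 in Mettl14 KO (adjusted p = 0.0549 without its replicate 1) and by 0.55 in Mettl3 KO. Gtf2f1 of TFIIF and Gtf2h1 of the TFIIH core were also lower in both (-0.44 and -0.48 in Mettl14 KO, -0.49 and -0.16 in Mettl3 KO). The 1 gene higher in Mettl14 KO was Gtf2f2, the other TFIIF subunit (0.29, adjusted p = 0.00741), which was at 0.07 in Mettl3 KO.

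TFIID split between the knockouts. Of 16 tested TAF genes, 4 were higher and 4 lower in Mettl14 KO (median -0.05), whereas 8 were higher and 4 lower in Mettl3 KO (median 0.21). Taf1, the largest subunit, which binds promoter DNA and acetylated histones, fell by 0.22 (SE 0.045, adjusted p = 0.000494) in Mettl14 KO and was at -0.03 in Mettl3 KO. Taf3, whose PHD finger reads trimethylated histone H3 lysine 4, was higher in both, by 0.27 (adjusted p = 0.035) and 0.55 (adjusted p = 0.000292). Its rise in Mettl14 KO did not pass with DESeq2 (adjusted p = 0.192) or without replicate 2 of WT26 (0.13, adjusted p = 0.371) or either Mettl14 KO replicate. Taf5, a WD40 subunit of the TFIID core, rose in Mettl3 KO (0.53, SE 0.111) and was at 0.01 in Mettl14 KO.

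Taf13, a histone-fold subunit that pairs with Taf11, showed the widest gap between the knockouts. The gene lies at chr3:108571698-108583222 (plus strand) and was at 175.4 and 171.8 (WT26), 76.1 and 82.8 (Mettl14 KO), 128.8 and 142.0 (RBC) and 171.3 and 175.3 (Mettl3 KO). It fell by 1.13 (SE 0.133, adjusted p = 1.4e-06) in Mettl14 KO and rose by 0.35 (SE 0.122, adjusted p = 0.0215) in Mettl3 KO. The rise did not pass without replicate 1 of RBC (0.28, adjusted p = 0.142) or without replicate 2 of Mettl3 KO (adjusted p = 0.0624), nor with DESeq2 (adjusted p = 0.185).

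Taf7 and its X-linked paralogue Taf7l, which can replace it in TFIID, moved apart. Taf7 was at 750.6 and 773.0 (WT26), 474.7 and 451.1 (Mettl14 KO), 541.4 and 566.9 (RBC) and 594.8 and 641.6 (Mettl3 KO). It fell in Mettl14 KO only (-0.72, SE 0.0717, against 0.16 and an adjusted p of 0.0775 in Mettl3 KO), and the difference between the knockouts passed (0.87, adjusted p = 2.15e-06). Taf7l was at 152.8 and 196.5 (WT26), 248.4 and 235.8 (Mettl14 KO), 160.9 and 162.7 (RBC) and 107.8 and 103.7 (Mettl3 KO). It rose by 0.48 (SE 0.121) in Mettl14 KO and fell by 0.61 (SE 0.138) in Mettl3 KO, although the rise did not pass without replicate 1 of WT26 (0.30, adjusted p = 0.0855).

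Taf9 and Taf9b, histone-fold paralogues that serve in both TFIID and SAGA, were among the least abundant genes of the group, at 22.9 and 17.8 normalised counts per kb of exon in the control lines. Taf9b was at 27.1 and 39.7 (WT26), 74.1 and 67.2 (Mettl14 KO), 75.9 and 81.8 (RBC) and 94.8 and 124.9 (Mettl3 KO). WT26 stood below every other line, and the log2 fold change was 1.10 (SE 0.23) in Mettl14 KO and 0.47 (SE 0.184, adjusted p = 0.0406) in Mettl3 KO. The latter did not pass with DESeq2 (adjusted p = 0.217) or without any 1 of the RBC and Mettl14 KO libraries or replicate 2 of Mettl3 KO (adjusted p between 0.0501 and 0.303). Taf9 was at 64.4 and 37.5 (RBC) and 26.1 and 15.1 (Mettl3 KO), a fall of 1.25 (SE 0.328) that was 0.84 (adjusted p = 0.0716) without replicate 1 of RBC. Taf9 shares 1564 exon bases with Ak6 on the same strand, so reads could be split between them by the counting. In MeRIP input its counts were 4.43 times those of RNA-seq, where the median ratio of the group was 0.634, and Taf9 is therefore uncertain.

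The 5 genes of the SAGA coactivator that match the names were 1 higher and 2 lower in Mettl14 KO, and 3 higher and 0 lower in Mettl3 KO. Taf5l, a core WD40 subunit, was at 936.0 and 1002.8 (WT26), 809.2 and 794.0 (Mettl14 KO), 849.5 and 945.4 (RBC) and 1125.3 and 1116.0 (Mettl3 KO). It fell by 0.27 (SE 0.0644) in Mettl14 KO and rose by 0.32 (SE 0.0634) in Mettl3 KO, without overlap between a knockout and its control. Supt20, a structural subunit of the SAGA core, fell in Mettl14 KO (-0.37, SE 0.0483) and was at -0.01 in Mettl3 KO. Taf15 was higher in both (0.53 and 0.29). Of the 4 SL1 genes, 3 were lower in Mettl3 KO and 1 was higher in Mettl14 KO. Gtf2ird1 of the TFII-I family fell by 0.49 (SE 0.0684) in Mettl14 KO and rose by 0.20 (SE 0.0702, adjusted p = 0.026) in Mettl3 KO, where DESeq2 gave an adjusted p of 0.134 and the rise did not pass without replicate 1 of Mettl3 KO (0.13, adjusted p = 0.213) or replicate 1 of RBC (0.16, adjusted p = 0.139).

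Mediator as a whole showed no common direction, with 7 of 30 genes higher and 5 lower in Mettl14 KO (median 0.00) and 9 higher and 5 lower in Mettl3 KO (median 0.02). Its modules differed. Of the 7 head genes, 4 were lower and 0 higher in each knockout (medians -0.24 and -0.33). Of the 4 kinase module genes, 3 were higher in Mettl14 KO and 4 in Mettl3 KO, with 0 lower. The middle module held 1 higher and 1 lower of 9 in Mettl14 KO and 3 higher and 1 lower in Mettl3 KO, and the tail 2 and 1 higher of 9 with 0 lower.

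Med12l had the largest rise of the whole group. It encodes a paralogue of Med12, the protein that activates the module's kinase, and occupies chr3:59005825-59318682 (plus strand). It was at 228.8 and 242.6 (WT26), 630.0 and 681.9 (Mettl14 KO), 195.4 and 160.7 (RBC) and 309.6 and 274.0 (Mettl3 KO). The rises of 1.48 (SE 0.0957, adjusted p = 6.84e-10) and 0.72 (SE 0.109, adjusted p = 2.27e-05) left no overlap with the controls. At 16.2 normalised counts per kb of exon it remained among the lowest in the control lines, against 113.8 for Med12, and it shares 1948 exon bases with Igsf10 on the other strand. Med12 itself, which shares 749 exon bases with Gm21986 on the same strand, was at 1039.0 and 958.8 (WT26), 1125.7 and 1156.4 (Mettl14 KO), 755.3 and 753.2 (RBC) and 1354.0 and 1156.3 (Mettl3 KO). Its rise was 0.74 (SE 0.0709) in Mettl3 KO and 0.19 (SE 0.0694, adjusted p = 0.0282) in Mettl14 KO, where DESeq2 gave an adjusted p of 0.109 and the rise did not pass without replicate 2 of WT26 (0.13, adjusted p = 0.226) or either Mettl14 KO replicate. Med13, which tethers the kinase module to core Mediator, rose in Mettl3 KO (0.53) and was at 0.09 in Mettl14 KO, and its paralogue Med13l rose in both (0.37 and 0.52).

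Med1, the middle subunit that binds nuclear receptors, rose in both knockouts. Its levels were 1490.3 and 1470.9 (WT26), 2634.0 and 2731.6 (Mettl14 KO), 1854.2 and 1901.7 (RBC) and 3101.9 and 3018.7 (Mettl3 KO). The knockout libraries lay well above their controls, by 0.86 (SE 0.0442, adjusted p = 4.07e-11) and 0.70 (SE 0.0435, adjusted p = 3.71e-10). Med14, the backbone that joins head, middle and tail, was at 599.6 and 551.8, 762.2 and 724.8, 750.7 and 716.7, and 1298.3 and 1127.1 in the same order of lines, and rose by 0.37 (SE 0.0767) and 0.73 (SE 0.0731). Med24 of the tail rose by 0.69 in Mettl14 KO and 0.52 in Mettl3 KO.

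Other Mediator genes passed in 1 knockout. Med18, a head subunit that forms a movable jaw with Med20, was at 199.9 and 210.4 (WT26), 102.2 and 96.4 (Mettl14 KO), 162.1 and 182.4 (RBC) and 131.3 and 172.2 (Mettl3 KO). Its libraries separated in Mettl14 KO (-1.04, SE 0.142) and overlapped in Mettl3 KO (-0.19, adjusted p = 0.244), and the difference passed (0.85, adjusted p = 0.00204). Med8, which anchors Med18 in the head, fell by 0.64 in Mettl14 KO and was at -0.04 in Mettl3 KO. In Mettl3 KO, Med7, which forms the hinge of the middle module with Med21, rose by 0.72 (SE 0.085), and Med10 of the same module fell by 0.60 (SE 0.107), with -0.06 and 0.02 in Mettl14 KO. Both of these differences between the knockouts passed as well (adjusted p of 5.34e-05 and 0.00264). Med10 shares 4168 exon bases with Gm26819 on the other strand.

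The elongation factors were lower where they passed. Supt6 encodes Spt6, a histone chaperone that rides on the polymerase linker, and lies at chr11:78206746-78245987 (minus strand). It was at 4414.8 and 4341.8 (WT26), 2047.1 and 2098.4 (Mettl14 KO), 3626.9 and 3460.3 (RBC) and 2572.3 and 2470.8 (Mettl3 KO). The knockout libraries did not overlap with their controls, and the falls of 1.08 (SE 0.0477, adjusted p = 6.17e-12) and 0.49 (SE 0.0473, adjusted p = 1.1e-07) exceeded the spread between replicates. The difference between the knockouts passed (0.59, adjusted p = 1.7e-06). Supt6 shares 242 exon bases with Sdf2 on the other strand.

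Both subunits of DSIF, which binds the polymerase at pause sites, fell, each in another knockout. Supt4a was at 292.1 and 253.4 (WT26), 163.2 and 152.9 (Mettl14 KO), 280.5 and 296.7 (RBC) and 267.0 and 288.1 (Mettl3 KO) (-0.79, SE 0.106, and -0.06). Supt5 was at 2172.1 and 2246.0, 2137.3 and 2067.2, 2314.1 and 2354.2, and 1692.2 and 1684.1 in the same order (-0.07, adjusted p = 0.186, and -0.47, SE 0.0444). Supt16, the large FACT subunit and the highest of the group per length (1075.3 normalised counts per kb of exon), fell by 0.34 in Mettl14 KO and 0.44 in Mettl3 KO, and shares 1057 exon bases with Rpgrip1 on the other strand.

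Side by side, 16 genes were lower in both knockouts and 10 higher in both, 4 passed in opposite directions (Taf13, Taf5l, Gtf2ird1 and Taf7l), 39 passed in 1 knockout and 19 in neither. Of all genes tested, 13.3% were lower in both, 10.1% higher in both, 8.62% opposed, 41.8% passed in 1 knockout and 26.2% in neither. The genes lower in both included 7 Pol II subunits, and those higher in both included 6 Mediator genes. The test of the difference between the knockouts passed for 43 of the 88 genes (26 with DESeq2), against 43.2% of all genes. The parental lines differed too. Between RBC and WT26, 30 of the 88 passed, 17 higher and 13 lower in RBC, against 38.9% of all genes (19.7% higher and 19.2% lower). Of the 88, 17 passed with DESeq2 and 18 without replicate 1 of WT26. Taf9b was the 1 gene with a log2 fold change above 1 there (adjusted p = 0.00026, background 4.86%), and 5 Pol II subunits were higher in RBC and 3 kinase module genes lower.

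MeRIP input libraries offered a second look at the same RNA levels in separate libraries. Over the 88 genes the log2 fold changes of input and RNA-seq had Spearman correlations of 0.79 (Mettl14 KO) and 0.78 (Mettl3 KO), a description across genes that share their lines and libraries. Among the genes that passed in RNA-seq, 42 of 45 had the same sign in input in Mettl14 KO and 48 of 54 in Mettl3 KO. Over all 88 genes the sign was the same for 67 and 70. In the input libraries alone 0 genes of the group passed in edgeR, where 0.398% and 0.76% of all features passed, and at an unadjusted p under 0.05 the counts were 8 (background 10.6%) and 4 (background 11.7%). Supt6 in Mettl14 KO came nearest, with 3465.9 and 3318.9 normalised counts in WT26 input and 1588.1 and 1959.4 in Mettl14 KO input (-0.94, SE 0.228, adjusted p = 0.0913). It passed with DESeq2 (adjusted p = 0.00385) and with the replicate number as a block (adjusted p = 0.0457).

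**Figure D3:**
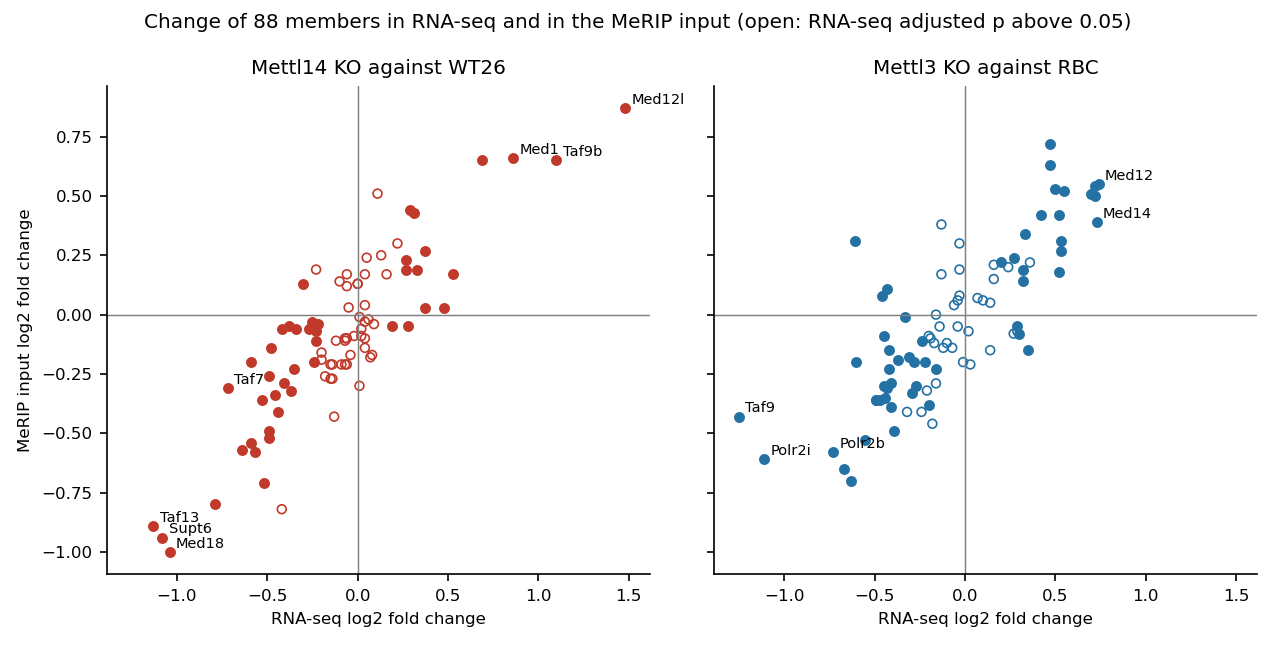
Log2 fold change in MeRIP input (vertical axis) against that in RNA-seq (horizontal axis) for the 88 genes, in Mettl14 KO (left) and Mettl3 KO (right). Each point is 1 gene and filled points passed in RNA-seq; the points rise along the diagonal, with Spearman correlations of 0.79 and 0.78.

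m6A enrichment was read as the log2 ratio of IP to input counts after scaling each library by median-of-ratios size factors, so that 0 stands for the median feature rather than for unmethylated RNA. The methyltransferase prefers the consensus DRACH, of which GGACT is a common form. On the transcript strand this 5-letter motif occurred in 80 of 89 transcripts of the group (89.9%, against 86.6% of 21899 protein-coding transcripts), and within 400 bases of the stop codon in 62 (69.7%, against 53.3%). It had no match in the Polr2l and Supt20 transcripts searched. Since enriched and depleted genes both carry it, the match nearest the stop codon is shown for 4 genes with high and 3 with low IP over input, in GRCm38 on the strand of the gene, with GGACT in capitals.

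Taf5l: acagtccaGGACTtgctaaaa
Med18: aacctcacGGACTtcctgatg
Med9: atccccaaGGACTaggccagc
Taf3: cgtgggcaGGACTgctgccct
Med12: atgggcatGGACTgacttcca
Med23: agaggagtGGACTcacgtcta
Polr2a: gctgtcttGGACTcactgacc

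The first 4 are from the high genes: Taf5l at chr8:123997244-123997264 (minus strand, 3′ UTR, 58 bases past the end of the coding sequence), Med18 at chr4:132459830-132459850 (minus strand, coding), Med9 at chr11:59960761-59960781 (plus strand), where the motif runs into the stop codon, and Taf3 at chr2:9916322-9916342 (minus strand, 3′ UTR). The last 3 are from the low genes: Med12 at chrX:101294148-101294168 (plus strand, coding, 528 bases before the end), Med23 at chr10:24912852-24912872 (plus strand, 3′ UTR) and Polr2a at chr11:69734210-69734230 (minus strand, 3′ UTR). Within 400 bases of the stop the motif lay in the 4 high genes and in Med23 and Polr2a, but not in Med12. A match of letters does not show a methylated site. Across the 87 genes with at least 50 normalised input counts, GGACT matches per kb and IP over input in WT26 had a Spearman correlation of 0.03, and 0.08 over 10633 protein-coding genes. For the number of matches within 400 bases of the stop the values were 0.05 and 0.07.

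In WT26, 16 of the 88 genes were enriched in IP (adjusted p at most 0.05 and log2 IP over input above 1), against 14.5% of all 22621 features, and 9 were depleted at the mirrored threshold, against 13.5%. In RBC 16 were enriched (background 13.4%) and 8 depleted (11.1%). In Mettl14 KO 16 were enriched (11.9%) and 7 depleted (9.91%), and in Mettl3 KO 5 were enriched (2.54%) and 1 depleted (1.86%). Both control lines shared 15 enriched genes, namely Polr2l, Polr2m, Gtf2e1, Taf1c, Taf3, Taf5l, Taf7, Taf8, Taf11, Med7, Med9, Med11, Med18, Med26 and Med29, and 7 depleted genes, Polr2a, Polr2b, Gtf2i, Supt20, Med12, Med14 and Med23. The share of all features called in both control lines was not computed, so this overlap is a list and not a trait of the group. The counts of enriched genes leaned on single libraries: without input replicate 2 or IP replicate 2 of the line itself 0 genes were enriched in any of the 4 lines, and without input replicate 1 the counts were 5 in WT26, 1 in RBC and 0 in both knockouts.

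Taf5l had the highest ratio in both control lines. Its log2 IP over input was 1.57 and 2.67 (WT26), 1.30 and 2.59 (RBC), 1.36 and 2.46 (Mettl14 KO) and 0.68 and 2.14 (Mettl3 KO), and in each line the libraries numbered 2 gave the larger value. The fitted values were 2.26 (SE 0.566, adjusted p = 0.0119), 2.10, 2.09 and 1.52 (SE 0.554, adjusted p = 0.112). In Mettl14 KO Med11 stood above it (2.24), and in Mettl3 KO Med11 and Polr2l (1.97 each), Polr2i (1.92) and Taf8 did. Med18 followed with 1.97 in WT26, 1.95 in RBC, 1.86 in Mettl14 KO and 1.31 in Mettl3 KO. Taf8, a histone-fold TAF, held close values in all 4 lines (1.70, 1.66, 1.70 and 1.57). In Mettl3 KO its adjusted p was 0.0381, and 0.0568 with input and IP of a replicate paired as a block.

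At the other end stood Med12, at chrX:101274030-101297465 (plus strand). Its log2 IP over input was -1.46 and -2.26 (WT26), -1.32 and -1.99 (RBC), -1.30 and -1.83 (Mettl14 KO) and -0.73 and -1.04 (Mettl3 KO). It lay below 0 in all 8 pairs of libraries, and nearest 0 in Mettl3 KO, but it is singled out here for its low ratios in the control lines. The fitted values were -1.75 (SE 0.372, adjusted p = 0.00749), -1.60, -1.51 and -0.88 (adjusted p = 0.15). Med23 of the tail (-1.66, -1.59, -1.47 and -1.06 in the same order) and Med14 (-1.66, -1.47, -1.46 and -0.91) were similar. Polr2a was at -1.31, -1.15, -1.19 and -0.71, and Polr2b at -1.12, -1.04, -1.0 and -0.20. The large catalytic subunits thus stood at the opposite end from Polr2l, a small zinc-binding subunit (1.76, 1.64, 1.64 and 1.97).

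**Figure D4:**
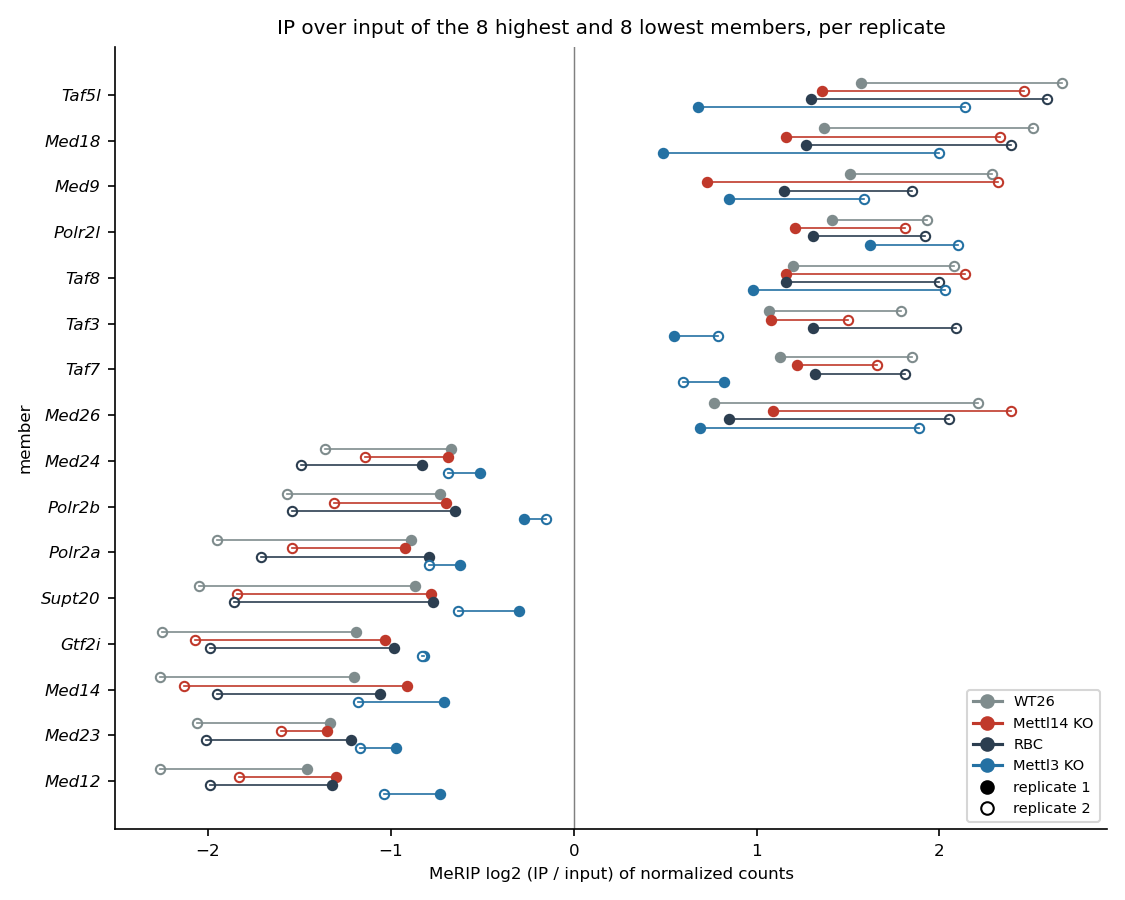
Log2 ratio of IP to input counts (horizontal axis) in the 4 lines for the 8 genes with the highest and the 8 with the lowest ratio (vertical axis) among those with at least 50 normalised input counts. Filled points are replicate 1 and open points replicate 2. Ratios in replicate 2 lie further from 0 in most genes. The genes were ranked by the mean fitted ratio of WT26 and RBC, and this choice by itself favours ratios nearer 0 in the knockouts. Those of Mettl3 KO lie nearer 0 in most genes, as for Med12 (-0.73 and -1.04, against -1.32 and -1.99 in RBC), but the fitted ratio of Polr2l does not.

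By complex, the middle module of Mediator leaned to enrichment, with 6 of 9 genes above input in WT26 (median 0.83) and 5 in RBC (median 0.84) at the threshold of 0.05 on the adjusted p, and 0 below. The tail leaned the other way, with 1 above and 3 below of 9 in WT26 (median -0.59) and 1 above and 4 below in RBC (median -0.72). The 7 head genes had 3 above and 0 below in each control line, and the 16 TFIID genes 5 above and 0 below. At the same threshold 16.9% of all features were above and 16.1% below in WT26, and 15.5% and 13.1% in RBC. Among the 12 Pol II subunits 3 were above and 2 below in both control lines.

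A feature that the naming rule did not use ran along with these ratios. The number of exons in the transcript and the IP over input had a Spearman correlation of -0.65 in WT26, -0.60 in RBC, -0.62 in Mettl14 KO and -0.58 in Mettl3 KO over the 87 genes with at least 50 normalised input counts. Over 10633 protein-coding genes the values were -0.44, -0.43, -0.42 and -0.38, so the relation was also present in the transcriptome, at a smaller size. The points share their libraries, and exon number runs with length. The transcripts of Med9, Med18 and Taf5l have 2, 3 and 5 exons, whereas those of Polr2a, Med23 and Med12 have 29, 30 and 45. With exons counted per kb, the correlation was -0.50 in WT26 and -0.21 in Mettl3 KO, close to the -0.44 and -0.20 over protein-coding genes. Transcript length itself had correlations of -0.32 and -0.46 in the group, against -0.02 and -0.19 over protein-coding genes.

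**Figure D5:**
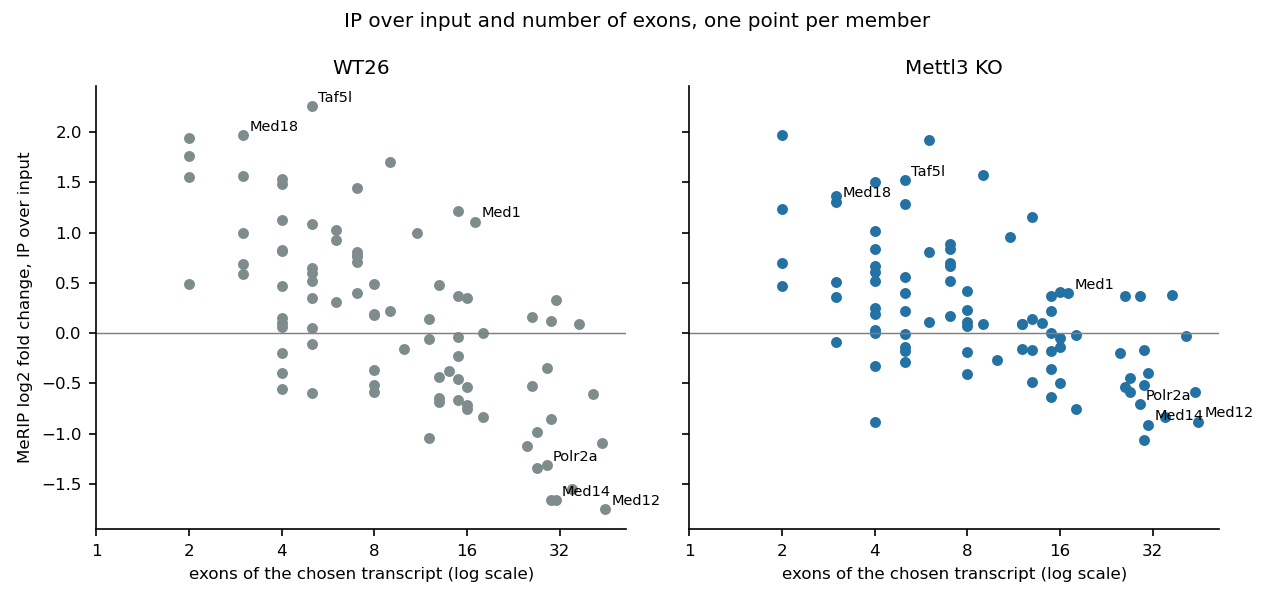
Fitted log2 IP over input (vertical axis) against the number of exons in the transcript (horizontal axis, log2 scale) for 87 genes with at least 50 normalised input counts, in WT26 (left) and Mettl3 KO (right). Each point is 1 gene; the ratio falls with exon number in both panels, and the points spread less widely in Mettl3 KO.

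The test of a change in enrichment passed for 0 of the 88 genes in Mettl14 KO against WT26 and 0 in Mettl3 KO against RBC with edgeR, as for all 22621 features (0.0% in both). At an unadjusted p under 0.05 there were 0 genes of the group in Mettl14 KO (0.557% of all features) and 5 in Mettl3 KO (3.48%). DESeq2 passed 0 genes of the group in either. The smallest p in Mettl3 KO belonged to Supt7l, a SAGA subunit that pairs with Taf10, whose log2 IP over input was 0.65 and 0.90 (RBC) against -0.10 and -0.26 (Mettl3 KO). Its change was -0.97 (SE 0.332, unadjusted p = 0.0115, adjusted p = 0.854). Taf3 came next, at 1.31 and 2.09 (RBC) against 0.55 and 0.79 (Mettl3 KO), a change of -1.08 (SE 0.424). Med31, a small middle subunit, had the opposite sign, with -0.36 and -0.56 (RBC) against 0.77 and 0.41 (Mettl3 KO) and a change of 1.07 (SE 0.438). Replicates of these 3 did not overlap between the lines, but none passed. In Mettl14 KO the smallest p belonged to Gtf2h5, a small TFIIH subunit, at -0.64 (SE 0.328), Polr2h at -0.53 (SE 0.365) and Supt3 of SAGA at 0.55 (SE 0.514), all with an adjusted p of 1.0.

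The ratios of the group were nevertheless less widely spread in Mettl3 KO. To describe this without choosing genes in the lines compared, genes were taken from the calls of the other control line. The 16 genes enriched in WT26 had a median log2 IP over input of 1.54 in RBC and 0.75 in Mettl3 KO, and 14 of them were lower in Mettl3 KO than in RBC. The 9 genes depleted in WT26 had medians of -1.25 and -0.71, and all 9 were higher in Mettl3 KO. The 16 genes enriched in RBC had medians of 1.54 in WT26 and 1.54 in Mettl14 KO, with 9 lower and 7 higher in the knockout. The 8 genes depleted in RBC had medians of -1.45 in WT26 and -1.33 in Mettl14 KO, and all 8 were higher in Mettl14 KO. The SD of the ratios over the group was 0.66 and 1.16 in the RBC replicates and 0.57 and 0.83 in Mettl3 KO, where that of 13499 well-covered features went from 0.83 and 1.43 to 0.74 and 0.95. The narrower spread was seen over all features as well. By contrast, Polr2i was at 1.19 and 1.14 (RBC) and 1.49 and 2.28 (Mettl3 KO), a fitted 1.17 and 1.92 (SE 0.344, adjusted p = 0.0107). Its value in Mettl3 KO did not pass without input replicate 1 (1.98, adjusted p = 0.135), input replicate 2 (1.87, adjusted p = 0.122) or IP replicate 2 (1.54, adjusted p = 0.16) of that line. With Polr2f, Gtf2f1, Taf8 and Med11 it made up the 5 genes enriched there. Counts in Mettl3 KO varied with the processing, from 5 to 11 with DESeq2 and 12 without the filter on low counts.

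Enrichment in the control lines and the RNA-seq changes did not run together in this group. Of the 15 genes enriched in both control lines, 2 were higher and 4 lower in Mettl14 KO (median -0.07), and 4 higher and 3 lower in Mettl3 KO (median -0.03). Of the 7 depleted genes, 2 were higher and 4 lower (median -0.35), and 2 higher and 2 lower (median 0.10). The 66 others had medians of -0.07 and -0.15. Across the 88 genes IP over input in the parental line and the RNA-seq change had Spearman correlations of -0.14 (Mettl14 KO) and -0.04 (Mettl3 KO).

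Among 45 partner genes outside the naming rule, such as TBP, the TFIIH and Mediator kinases, NELF, P-TEFb and the PAF1 complex, 7 were higher and 16 lower in Mettl14 KO (median -0.11), and 12 higher and 18 lower in Mettl3 KO (median -0.08). No partner passed with a log2 fold change beyond 1 in size (background 7.95% higher and 6.57% lower in Mettl14 KO, 6.15% and 7.43% in Mettl3 KO). NELF, which holds the paused polymerase, had 1 of 4 genes higher in Mettl14 KO and 3 of 4 lower in Mettl3 KO. P-TEFb and its regulators, which release it, had 4 of 6 lower in Mettl14 KO, and 2 higher and 3 lower in Mettl3 KO. The PAF1 complex had 4 and 3 of 6 lower, with 1 higher in each. In IP over input, 12 of the 45 were above and 6 below in WT26 (16.9% and 16.1% of all features), and 9 above and 5 below in RBC (15.5% and 13.1%). Of the 6 P-TEFb genes, 4 were above in WT26 and 3 in RBC.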

How the data were processed

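Nuclear RNA of the 4 lines was measured in 8 RNA-seq libraries (reads per gene) and 16 MeRIP libraries (input and IP, reads per gene and per repeat subfamily), 2 replicates in each of 12 groups taken from the labels. The authors deposited both tables as raw counts without normalisation. The submitters' processing notes name FastQC, cutadapt 1.8.1, STAR 2.6.0c, DESeq2 1.26.0 and the build GRCm38. Per the study's methods, reads with several positions were kept for MeRIP and counted with TEtranscripts, which can share reads between copies. The tool and strand setting of the RNA-seq counting are not given in the sources used here. All columns were assigned to samples (0 left over).

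Counts were scaled with DESeq2 1.42.0 median-of-ratios size factors and tested with edgeR 4.0.16 (R 4.3.3, filterByExpr, glmQLFit, glmQLFTest) in 1 fit per table, with Benjamini-Hochberg adjustment over the 17021 genes or 22621 features tested. Replicate log2 ratios used a pseudocount of 0.5. Totals of 9394163 to 28441282 reads bound counting error only. With 2 replicates in a group, the p-values rest on an estimate of the spread that all groups of an assay share, not on the compared libraries alone. The RBC RNA-seq replicates stood further apart than the others, so the shared estimate may understate the error of comparisons with RBC. The tests were tried on simulated data. Gene models and sequences are from GENCODE M21 on GRCm38, in which 47310 of the 47937 identifiers were found. Python 3.11.15, pandas 2.3.3 and matplotlib 3.10.9 were used for tables and figures.

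The genes, complexes, partner and marker lists were chosen with earlier results of these data known. The rule for named genes took those that passed with a log2 fold change beyond 1, the 8 largest rises and the 8 largest falls that passed in each knockout, the 8 highest and 8 lowest ratios of IP to input (at least 50 normalised counts), the 3 smallest p-values for a change of enrichment in each knockout, those that passed in opposite directions, and 10 fixed subunits. Polr2e, Gtf2f1, Gtf2f2, Gtf2h1, Polr2f, Polr2m and Med11 were named outside this rule after their values were seen.

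Input and IP of the same number come from the same RNA, and their deviations from the group means correlated at 0.2 to 0.287 over 13662 features. Inputs of different lines with the same number correlated more, at 0.451 (WT26 with Mettl14 KO) and 0.371 (RBC with Mettl3 KO). The values within a line are therefore no sign of shared RNA. RNA-seq replicates share only a number. Alternatives were DESeq2's Wald test, TMM normalisation, no filter on low counts, at least 10 counts in every library, only the libraries compared, genes without repeats (MeRIP), the replicate block, and leaving out each library. A block on the replicate number over all MeRIP lines was chosen after seeing the data. The spike-in and the authors' peak calls were not used here.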

Additional observations from a re-analysis of the deposited data

Results flagged for a closer look

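For 31 of the genes named by rule, the RNA-seq change in Mettl3 KO differed from that in Mettl14 KO by edgeR's test of the difference itself (adjusted p at most 0.05, Mettl3 KO minus Mettl14 KO, log2 scale). The rule picked genes partly by these same RNA-seq changes, so the 31 cannot be read as a share. Over the whole group 43 of the 88 genes passed, against 43.2% of all genes. The contrast draws on both parental lines, which also differed from each other in 30 of the 88 genes.

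Among the Pol II subunits the difference was positive for Polr2a (0.33) and Polr2d (0.75), which were lower in Mettl14 KO, and negative for Polr2b (-0.27), Polr2c (-0.43), Polr2h (-0.33) and Polr2i (-0.54), which were lower in Mettl3 KO than in Mettl14 KO relative to their parental lines. With DESeq2 the difference did not pass for Polr2a (adjusted p = 0.105), Polr2h (adjusted p = 0.201) or Polr2i (adjusted p = 0.0572), nor for Polr2a without replicate 1 of Mettl14 KO (0.28, adjusted p = 0.0704) or replicate 1 of WT26 (0.21, adjusted p = 0.0963). For Polr2h it did not pass when any 1 of 6 libraries was left out (adjusted p between 0.0549 and 0.145). Gtf2a2 of TFIIA differed by -0.31, which did not pass with DESeq2 (adjusted p = 0.0773) or without replicate 2 of Mettl14 KO, replicate 1 of Mettl3 KO or replicate 2 of WT26 (adjusted p of 0.0665, 0.109 and 0.0531). Gtf2ird1 and Gtf2i of the TFII-I family differed by 0.69 and 0.49.

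Among the named genes of TFIID and SAGA the widest gap was that of Taf13 (1.48), followed by Taf9 (-1.15), Taf7l (-1.09), Taf7 (0.87), Taf5l (0.59), Supt7l (0.56), Taf5 (0.52), Supt20 (0.36), Taf8 (-0.31) and Taf1 (0.19). The difference of Taf9 did not pass with DESeq2 (adjusted p = 0.154) or when any 1 of 5 libraries was left out, such as replicate 1 of RBC (-0.73, adjusted p = 0.215). Taf15 differed by -0.24. The differences of Taf5, Taf8, Taf1 and Taf15 did not pass with DESeq2 (adjusted p of 0.0599, 0.158, 0.114 and 0.0892). Nor did that of Taf5 without replicate 2 of Mettl14 KO, Mettl3 KO or RBC (adjusted p between 0.0509 and 0.0714), or that of Taf1 without replicate 1 of Mettl14 KO, replicate 2 of RBC or replicate 2 of WT26 (0.0759 to 0.137). That of Taf8 was lost without replicate 1 of Mettl14 KO or replicate 2 of Mettl3 KO, RBC or WT26 (0.108 to 0.263), and that of Taf15 without replicate 1 of Mettl14 KO or RBC or replicate 2 of Mettl3 KO or WT26 (0.053 to 0.12).

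In Mediator, Med18 (0.85), Med7 (0.78), Med8 (0.60), Med12 (0.55), Med13 (0.44) and Med14 (0.36) were higher in Mettl3 KO relative to its parental line than in Mettl14 KO, and Med12l (-0.76) and Med10 (-0.62) were lower. The difference of Med14 did not pass with DESeq2 (adjusted p = 0.0511) or without replicate 2 of Mettl14 KO, replicate 1 of Mettl3 KO or replicate 1 of WT26 (adjusted p of 0.0537, 0.0609 and 0.0618). Among the elongation factors, Supt4a differed by 0.73, Supt6 by 0.59 and Supt5 by -0.40.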

How the results depend on the processing

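Precision is limited by the duplicate samples of each group, and MeRIP replicates varied more than RNA-seq replicates. Among the genes named by rule, no value that passed in the main test changed its direction under any setting. The direction of other values was not checked. In RNA-seq, DESeq2 gave 9 higher genes in Mettl14 KO (edgeR 15), 17 genes between RBC and WT26 (edgeR 30) and 26 for the difference between the knockouts (edgeR 43); without replicate 1 of WT26, 18 passed between RBC and WT26. Leaving out 1 library at a time gave 37 to 45 genes in Mettl14 KO (10 to 15 higher, 25 to 31 lower), 45 to 55 in Mettl3 KO (18 to 23 higher, 27 to 33 lower), 18 to 34 between the parental lines and 34 to 47 for the difference. In MeRIP the genes enriched ran from 0 to 18 in WT26, 0 to 19 in RBC, 0 to 18 in Mettl14 KO and 0 to 9 in Mettl3 KO when 1 library was left out. The libraries that brought the count to 0 or to at most 5 were, in WT26, RBC and Mettl14 KO, both inputs and IP replicate 2 of the line itself; in Mettl3 KO these gave 0, each input of the other lines 3, the WT26 IPs 8, and IP replicates 1 and 2 of Mettl14 KO 8 and 9. In Mettl3 KO the count of 5 became 11 with DESeq2, 8 with TMM, 12 without the filter on low counts and 10 with a block on the replicate number over all lines, a setting chosen after seeing the data. For MeRIP input in Mettl14 KO, DESeq2 and the replicate block each passed 1 gene, Supt6. The change of enrichment passed 0 genes of the group under every setting run. The cause of these shifts was not tested.

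RNA-seq replicates share only a number, and the correlation of their deviations was -0.0728 for WT26 with Mettl14 KO and 0.463 for RBC with Mettl3 KO. With the replicate block 45 genes (Mettl14 KO) and 54 genes (Mettl3 KO) passed. In MeRIP, pairing input and IP as a block took Med8 to an adjusted p of 0.055 in WT26 and 0.0687 in RBC, and Med23 (0.0573) and Taf8 (0.0568) in Mettl3 KO; for the other genes named by rule it ended no call. For single named genes and other settings, 607 values kept their side of the threshold and 34 did not in RNA-seq, and 481 did and 16 did not in MeRIP; with 1 library left out these were 806 and 90, and 841 and 295.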
